A study of Mus musculus with 6 samples.

Results

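Follicular regulatory T cells are Foxp3+ regulatory T cells that enter B cell follicles and restrain the germinal centre reaction. The 9 genes described here were chosen as genes of that programme and of the follicular helper cells that share it: Cxcr5, Bcl6, Il21, Icos, Sh2d1a, Cd40lg, Slamf6, Il6ra and Il6st. They were chosen by their place in the programme with earlier log2 values of the HDAC6 knockout against wild-type comparison in view, so their differences are given as descriptions and carry no test of their own. All 9 had at least 1 probe set that the array's annotation ties to a single gene, 15 probe sets in all, among 22626 probe sets and 12393 named genes. Of these genes 4 had 1 probe set and 5 had several, and every probe set is shown.

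The samples were CD4+CD25+ regulatory T cells from HDAC6 knockout mice (3 arrays), set against CD4+CD25+ regulatory T cells from wild-type mice of strain C57BL6 (3 arrays). HDAC6 is a largely cytoplasmic deacetylase, and the series title pairs it with the chaperone HSP90 in Foxp3+ cells. The cells were separated magnetically, and the design text calls the 3 samples of each genotype independent. The sources used here do not give the age of the mice, the strain of the knockout, the form of the deleted allele or the number of animals per sample. The follicular cells were not isolated: each array reads the whole CD4+CD25+ preparation, in which fewer cells of a type and less RNA per cell cannot be told apart.

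In the follicle programme, BCL6 is the transcription factor that establishes follicular T cells, and CXCR5 is the receptor that draws them along the chemokine CXCL13 into the B cell zone. ICOS delivers a costimulatory signal that sustains BCL6, and the adaptor SAP, encoded by Sh2d1a, couples SLAM family receptors such as SLAMF6 to kinases during contact with B cells. IL-6, read through IL6RA and the shared chain gp130 (Il6st), and IL-21 both act through STAT3, while IL-2 acting through STAT5 opposes the programme. IL-21 and CD40 ligand are the signals by which follicular helper cells aid B cells, and follicular regulatory cells are known for making little of them.

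The sequences shown are those of promoters that RefSeq lists for members with a bearing on this circuit: Il21, the member with the largest difference, and Bcl6, the programme's master factor. They are the 250 bases before the gene start in build GRCm38.p6, of which the table held 6 stretches for 5 of the 9 members (Bcl6, Il21, Il6ra, Il6st and Slamf6). The Il21 stretch lies on the minus strand at chr3:37232637-37232886, and its capitals mark GGAAA or its complement TTTCC, the core letters that NFAT factors recognize.
Il21: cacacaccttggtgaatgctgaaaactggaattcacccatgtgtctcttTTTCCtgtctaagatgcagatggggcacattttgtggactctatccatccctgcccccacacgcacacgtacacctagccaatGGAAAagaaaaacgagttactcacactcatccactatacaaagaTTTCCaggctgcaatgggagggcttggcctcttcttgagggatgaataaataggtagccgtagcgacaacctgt
The Bcl6 stretches lie on the minus strand at chr16:23988853-23989102 and chr16:23981284-23981533, before an upstream and a downstream start of the gene. Their capitals mark TTCNNNGAA, the letters that STAT dimers recognize and that resemble the site BCL6 itself binds.
Bcl6, upstream start: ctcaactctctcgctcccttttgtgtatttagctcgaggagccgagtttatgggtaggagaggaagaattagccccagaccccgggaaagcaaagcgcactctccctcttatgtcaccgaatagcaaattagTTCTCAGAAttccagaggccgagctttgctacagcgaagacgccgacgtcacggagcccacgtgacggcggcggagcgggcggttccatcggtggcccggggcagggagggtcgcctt
Bcl6, downstream start: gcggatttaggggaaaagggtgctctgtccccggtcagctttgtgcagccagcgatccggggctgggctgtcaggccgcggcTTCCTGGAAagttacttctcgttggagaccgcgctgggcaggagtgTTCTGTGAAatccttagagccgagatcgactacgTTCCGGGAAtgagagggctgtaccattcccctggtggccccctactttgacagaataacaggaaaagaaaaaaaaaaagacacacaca

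Both strands were searched, and a match that reads the same on both was counted once. GGAAA occurred 3 times before Il21, at 201, 118 and 74 bases before the start. At least 1 GGAAA stood in 55.6% of the 32851 RefSeq stretches of this length, and at least 3 in 6.39%. TTCNNNGAA occurred 1 time before the upstream Bcl6 start and 3 times before the downstream one, at 168, 122 and 88 bases, and was in none of the stretches of Il21, Il6ra, Il6st and Slamf6. At least 1 TTCNNNGAA stood in 7.02% of all stretches, and at least 3 in 9 of them. The GGAAA letters overlap 1 of the Bcl6 matches, at TTCCTGGAA. The AP-1 letters TGANTCA, found in 6.75% of all stretches, were in none of the 6. These are matches of letters and not measured binding.

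Array medians were close, at 6.23 to 6.26 in the knockout and 6.22 to 6.27 in wild type on the log2 scale of the deposited values. Hdac6 read 7.54, 7.86 and 7.64 in the knockout arrays, against 8.54, 8.23 and 8.42 in the wild-type arrays, without overlap. Its difference was -0.71 (SE 0.11), and limma's adjusted p of 0.0875 missed the threshold of 0.05. The sources used here do not place its probes relative to the deletion. Of all probe sets tested, 44 passed that threshold (0.194%).

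Across the 15 probe sets of the follicular genes, 8 were higher in the knockout (49.6% of all probe sets were) and 7 lower, with a median log2 difference of 0.08, against -0.00 over all probe sets. The differences ran from -0.42 for a probe set of Slamf6 to 1.30 for Il21, and 7 of the 15 were smaller than 0.1 in size. In 4 probe sets, of Cxcr5, Il21, Slamf6 and Il6st, every knockout array read above every wild-type array, which held for 7.68% of all probe sets, and in 0 did every knockout array read below (9.48% of all). By limma 0 of the 15 passed the adjusted threshold and 4 had an unadjusted p under 0.05, a level reached by 10.6% of all probe sets. At a looser adjusted p of 0.1 the call was 1 of 15, Cxcr5, against 0.535% of all probe sets, and with trend and robust settings of limma it was again Cxcr5, against 0.65%. Because the genes were picked with this contrast known, nothing is read from these counts.

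**Figure D1:**
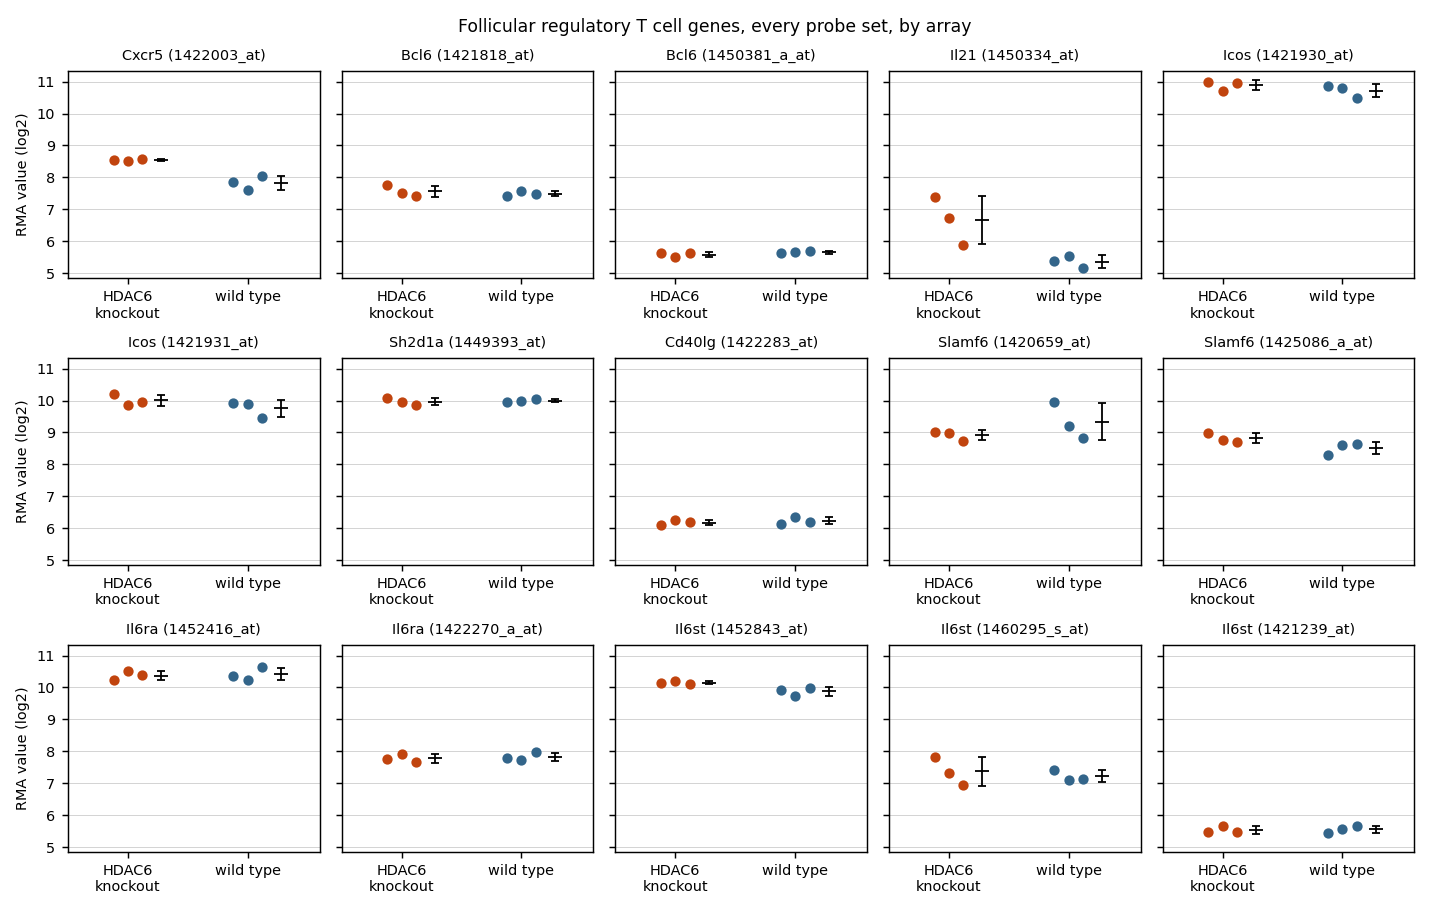
Deposited RMA values (log2, vertical axis) of all 15 probe sets of the 9 genes, 1 panel per probe set, for 3 HDAC6 knockout arrays (orange) and 3 wild-type arrays (blue), with the mean and SD at the right of each group. Cxcr5, Il21, 1 of the Slamf6 probe sets and 1 of the Il6st probe sets show no overlap between genotypes.

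Cxcr5, the follicle-homing chemokine receptor, had a single probe set (1422003_at), which stood higher in the knockout. It read 8.54, 8.52 and 8.58 in the knockout arrays, against 7.86, 7.60 and 8.03 in the wild-type arrays. All 3 knockout arrays lay above the highest wild-type array, and they lay within 0.06 of each other, against a range of 0.43 in wild type. The means were 8.55 ± 0.03 in the knockout and 7.83 ± 0.22 in wild type (SD, n = 3 each), a log2 difference of 0.72 (SE 0.11), or 1.64-fold. Of all probe sets, 0.663% had a difference at least as large. Cxcr5 was picked with this contrast known, so that share is a description and no test. With any 1 array left out the difference stayed between 0.60 and 0.82.

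Il21, the cytokine through which follicular helper cells drive germinal centre B cells, showed the largest difference of the 9 genes and also the widest spread. Its probe set (1450334_at) read 7.39, 6.72 and 5.87 in the knockout arrays, against 5.39, 5.54 and 5.15 in the wild-type arrays. The lowest knockout array was 5.87 and the highest wild-type array 5.54, so the genotypes did not overlap, but the knockout arrays covered a range of 1.52, against 0.39 in wild type. The means were 6.66 ± 0.76 in the knockout and 5.36 ± 0.20 in wild type (SD, n = 3 each), a log2 difference of 1.30 (SE 0.35), or 2.46-fold. A difference at least that large was seen in 0.208% of all probe sets, again a description and no test of a gene picked this way. The Il21 difference was 0.93 without knockout replicate 1, the highest array, and 1.69 without knockout replicate 3, the lowest. All 3 wild-type values and that of knockout replicate 3 lay below their arrays' medians. No detection calls were used here, so a level in wild-type cells or in that knockout array is not established.

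Bcl6, the factor that commands the programme, overlapped between the genotypes in both of its probe sets. Its brighter probe set (1421818_at) read 7.75, 7.52 and 7.42 in the knockout arrays, against 7.41, 7.57 and 7.48 in the wild-type arrays. The highest of the 6 values was knockout replicate 1. The log2 difference was 0.08 (SE 0.10), and it was -0.02 without that array. The dimmer probe set (1450381_a_at), annotated to the same accession, read 5.63, 5.51 and 5.62 in the knockout arrays, against 5.62, 5.65 and 5.71 in the wild-type arrays. Its difference was -0.07 (SE 0.07), with the intervals of the 2 probe sets at -0.16 to 0.31 and -0.24 to 0.09.

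Icos, the costimulatory receptor that upholds BCL6 in follicular cells, had 2 probe sets that moved together over the arrays (Pearson's r = 0.948 across 6 arrays that share their RNA, given as a description). The brighter (1421930_at) read 10.99, 10.71 and 10.96 in the knockout arrays, against 10.85, 10.80 and 10.48 in the wild-type arrays. The dimmer (1421931_at) read 10.20, 9.85 and 9.96 in the knockout arrays, against 9.91, 9.88 and 9.45 in the wild-type arrays. In both, knockout replicate 2 fell inside the wild-type range and wild type replicate 3 was the lowest of all. The differences were 0.18 (SE 0.13) and 0.25 (SE 0.15), and 0.06 and 0.11 without wild type replicate 3.

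Sh2d1a, which encodes the adaptor SAP, was nearly level between the genotypes. Its probe set (1449393_at) read 10.07, 9.96 and 9.86 in the knockout arrays, against 9.94, 10.00 and 10.03 in the wild-type arrays. The wild-type values lay inside the knockout range, and the difference was -0.03 (SE 0.08, 95% interval -0.21 to 0.15).

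Slamf6, a receptor that recruits SAP, gave opposite readings from its 2 probe sets. The first (1420659_at) read 9.02, 8.98 and 8.74 in the knockout arrays, against 9.96, 9.21 and 8.83 in the wild-type arrays. The genotypes overlapped and the wild-type arrays spread over 1.13, with replicate 1 far the brightest. The difference was -0.42 (SE 0.26), but -0.11 without wild type replicate 1 and -0.67 without wild type replicate 3. The second (1425086_a_at) read 8.99, 8.76 and 8.70 in the knockout arrays, against 8.30, 8.61 and 8.64 in the wild-type arrays. Here every knockout array lay above every wild-type array, by as little as 0.06 at the closest, and the difference was 0.30 (SE 0.12). In wild type replicate 1 the first probe set was the highest of the 6 arrays and the second the lowest. Across the 6 arrays the pair ran in opposite directions (Pearson's r = -0.73, a description). By the naming convention of these arrays the suffix a marks probes shared by several transcripts of 1 gene, so the pair need not read the same transcripts, and no direction is given for Slamf6 as a gene.

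Cd40lg, the ligand by which helper cells stimulate CD40 on B cells, was also nearly level. Its probe set (1422283_at) read 6.09, 6.25 and 6.19 in the knockout arrays, against 6.14, 6.36 and 6.20 in the wild-type arrays. The difference was -0.06 (SE 0.08, 95% interval -0.26 to 0.14), with overlapping genotypes. Il21 and Cd40lg, the helper signals of the set, gave unlike values in the same arrays, 1.30 and -0.06.

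Il6ra, the ligand-binding chain of the IL-6 receptor, overlapped between the genotypes in both probe sets. The brighter (1452416_at) read 10.23, 10.51 and 10.38 in the knockout arrays, against 10.37, 10.25 and 10.63 in the wild-type arrays. The dimmer (1422270_a_at) read 7.75, 7.92 and 7.66 in the knockout arrays, against 7.80, 7.71 and 7.97 in the wild-type arrays. Both pairs of ranges lay largely on top of each other, with differences of -0.04 (SE 0.12) and -0.05 (SE 0.10).

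Il6st, the gp130 chain that IL-6 shares with related cytokines, had 3 probe sets that did not give 1 answer. The brightest (1452843_at) read 10.13, 10.21 and 10.12 in the knockout arrays, against 9.93, 9.72 and 9.99 in the wild-type arrays. These groups did not overlap, and the difference was 0.27 (SE 0.09), between 0.19 and 0.33 with any 1 array left out. The other two, 1460295_s_at and 1421239_at, are annotated to 1 accession and overlapped between the genotypes. For 1460295_s_at the values were 7.83, 7.33 and 6.95 in the knockout arrays, against 7.43, 7.10 and 7.13 in the wild-type arrays. Its difference of 0.15 (SE 0.22) became -0.08 without knockout replicate 1, and its suffix s marks probes that may match transcripts of other genes. For 1421239_at the values were 5.48, 5.67 and 5.46 in the knockout arrays, against 5.43, 5.57 and 5.65 in the wild-type arrays, a difference of -0.01 (SE 0.09).

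**Figure D2:**
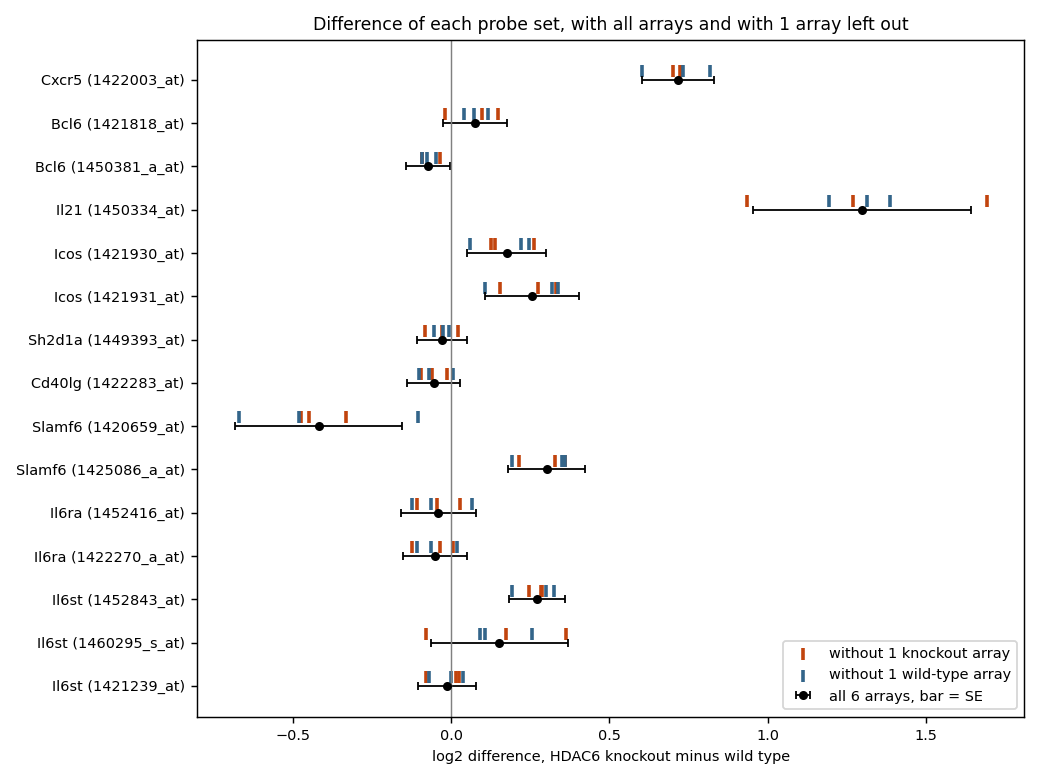
Log2 difference, HDAC6 knockout minus wild type (horizontal axis), of each of the 15 probe sets over all 6 arrays (black point, bar = SE), with ticks for the value after leaving out each knockout (orange) or wild-type (blue) array. Cxcr5 stays between 0.60 and 0.82 and Il21 between 0.93 and 1.69, while the first Slamf6 probe set ranges from -0.67 to -0.11.

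The order of the arrays within each genotype was counted over the 15 probe sets, some of which read the same gene. Knockout replicate 1 was the highest knockout array in 9 of the 15 probe sets, knockout replicate 2 in 5 and knockout replicate 3 in 1. Among wild-type arrays, replicate 3 was the highest in 8, replicate 1 in 4 and replicate 2 in 3. The same shares over all probe sets were not computed, so these counts are not read as a trait of these genes. The median within-genotype SD was 0.16 over the 15 probe sets and 0.12 over all probe sets. With 1 array left out in turn, 8 of the 15 differences kept their sign in every case: Cxcr5, Il21, both of Icos, both of Slamf6, the brightest of Il6st and the dimmer of Bcl6. For Cxcr5, Il21, the second of Slamf6 and the brightest of Il6st, whose groups did not overlap, no other outcome was possible.

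The genes with the profile most like that of Cxcr5 over the 6 arrays were Rbm38 (Pearson's r = 0.999), Sesn3 (0.999), Ldlrad4 (0.993) and Rasa2 (0.986), among 6842 genes at or above the median level. Most like Bcl6, by its brighter probe set, were 1600014C10Rik (0.983), Slc35b4 (0.982), Zkscan14 (0.978) and Dda1 (0.976). Most like Il21 were Mta2 (0.994), Nfkbie (0.981), Rad17 (0.980) and Cnot4 (0.980). With 6 arrays such values are common: 58 genes reached an r of 0.95 with Cxcr5, 25 with Il21 and 10 with Bcl6. The 3 sets of nearest genes had no gene in common.

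Genes that surround these members in the follicular programme were read by each gene's brightest probe set, for which 21 of 12393 genes (0.169%) passed limma's adjusted threshold and 11.2% had an unadjusted p under 0.05. In the 8 lists of such genes, which hold 76 measured genes, 0 passed and 23 had an unadjusted p under 0.05, and the median difference over all genes was 0.00. By the same probe sets and limma with trend and robust settings 1 of them passed, Id2 (adjusted p = 0.0312), and by the unmoderated test 0 did.

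Factors that promote the programme gave 9 higher and 2 lower values among 11 measured genes (median 0.13), and 4 had an unadjusted p under 0.05. Nfatc1, which transduces calcium signals and is needed in follicular T cells, read 9.60, 9.33 and 9.24 in the knockout arrays, against 8.96, 8.96 and 8.82 in the wild-type arrays. The difference was 0.48 (SE 0.11, limma adjusted p = 0.171). Maf, a factor that activates Il21, differed by 0.33 (SE 0.08, limma adjusted p = 0.207), and the AP-1 family factor Batf by 0.33 (SE 0.11, limma adjusted p = 0.374). Of 8 factors that oppose the programme 4 were higher and 4 lower, with a median of -0.00. Id2, which holds back the E proteins that favour Cxcr5 expression, differed by -0.78 (SE 0.13, limma adjusted p = 0.101), with 10.62, 10.57 and 10.91 in the knockout arrays, against 11.26, 11.57 and 11.61 in the wild-type arrays. Its other 2 probe sets, both dimmer, fell past the threshold, by 0.83 (limma adjusted p = 0.0260) and by 0.64 (limma adjusted p = 0.0304). Klf2, which keeps T cells recirculating, was at -0.16 and the IL-2 signal transducer Stat5a at 0.10.

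Surface molecules of follicular T cells gave 6 higher values among 9 (median 0.20). The ectonucleotidase Nt5e (CD73) differed by 0.76 (SE 0.17), Cd200 by -0.38 (SE 0.11) and the costimulatory receptor Tnfrsf4 by 0.27 (SE 0.09), with limma adjusted p-values of 0.174, 0.305 and 0.356. Among 8 genes of positioning and chemotaxis 6 were higher (median 0.07). Rgs16, which dampens chemokine receptor signals, differed by 0.59 (SE 0.12), the egress receptor S1pr1 by -0.63 (SE 0.14) and Cxcr4, the receptor of the germinal centre dark zone, by 0.80 (SE 0.24). Their limma adjusted p-values were 0.147, 0.170 and 0.310. Cxcl13, the ligand of CXCR5, was measured at 5.29, 5.08 and 4.91 in the knockout arrays, against 4.41, 4.92 and 5.22 in the wild-type arrays, and is named here after its values were seen. These values lay below the arrays' medians. Its dimmer probe set differed by 0.41 (SE 0.12, limma adjusted p = 0.286), with means of 4.47 in the knockout and 4.07 in wild type.

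The SLAM receptors and their partners, the signalling neighbours of Slamf6 and Sh2d1a, gave 5 higher and 6 lower values (median -0.02). The receptor Cd244a differed by -0.80 (SE 0.25), Cd48 by 0.17 (SE 0.07) and Cd84 by -0.18 (SE 0.08), with limma adjusted p-values of 0.320, 0.448 and 0.472. That Cd244a probe set was dim, with means of 4.58 in the knockout and 5.38 in wild type and overlapping groups, and the gene's other probe set was at -0.12. In the gene order of the RefSeq table Slamf6 lies next to Cd84, with Slamf1 the gene beyond it.

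Genes that signal for IL-6 and IL-21 gave 9 higher and 8 lower values among 17 (median 0.03). Socs3, which STAT3 induces and which blocks gp130, differed by 0.71 (SE 0.15), with 10.12, 10.04 and 9.79 in the knockout arrays, against 9.46, 8.97 and 9.38 in the wild-type arrays. The phosphatase Ptpn11, recruited to gp130, differed by 0.34 (SE 0.07), and Il21r, the receptor for IL-21, by 0.29 (SE 0.08). Their limma adjusted p-values were 0.157, 0.157 and 0.264. The other probe sets of Ptpn11 were at 0.19 and -0.07. Stat3 itself was at 0.13 (SE 0.07) by its brightest probe set, and its others were at 0.25 (SE 0.07) and -0.07 (SE 0.09).

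Partners of ICOS and CD40 ligand gave 2 higher and 7 lower values among 9 (median -0.04). The ICOS ligand gene Icosl differed by 0.36 (SE 0.11), Pik3r1, a subunit of the kinase that ICOS recruits, by -0.25 (SE 0.08), and the adaptor Traf2 by 0.13 (SE 0.10), with limma adjusted p-values of 0.323, 0.348 and 0.674. Of 5 corepressors and regulators of BCL6 3 were higher and 2 lower, with a median of 0.02. Mta3, a corepressor partner of BCL6 in B cells, differed by 0.28 (SE 0.08), the ubiquitin ligase scaffold Cul3 by -0.07 (SE 0.07) and Zbtb32 by 0.06 (SE 0.13), with limma adjusted p-values of 0.314, 0.797 and 0.915.

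**Figure D3:**
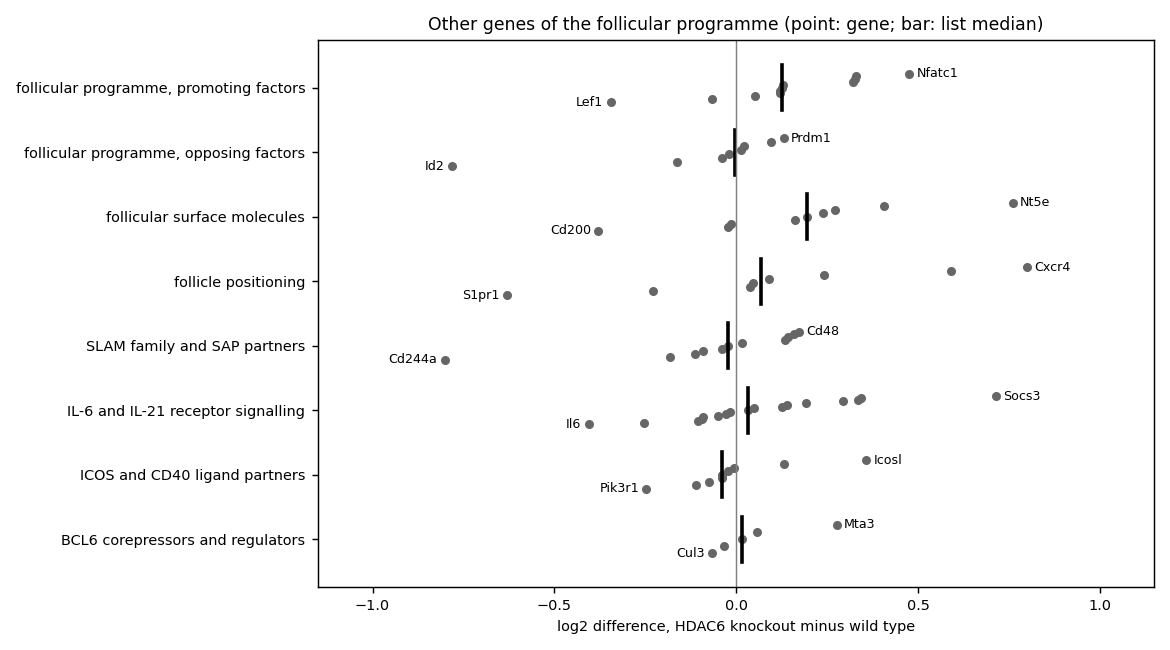
Log2 difference, HDAC6 knockout minus wild type (horizontal axis), of the measured genes in 8 lists of the follicular programme (points, by brightest probe set), with the list median as a bar and the lowest and highest gene named. Medians lie between -0.04 and 0.20, and 0 of these genes passed limma's adjusted threshold.

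The label of the cells was set beside their markers, which does not measure purity. Markers of other cells follow below. All 9 measured T cell genes were bright, with list means of 11.44 to 11.56 in the knockout and 11.48 to 11.55 in wild type, and the genes with the smallest p were Cd4 (0.21), Cd5 (-0.16) and Cd3d (-0.11). Foxp3 read 10.18, 10.40 and 10.38 in the knockout arrays, against 10.25, 10.21 and 10.33 in the wild-type arrays, with overlap. Of 10 regulatory T cell genes 8 were higher and 2 lower, led by Gpr83 (-0.47), Nrp1 (0.38) and Itgae (0.31), with 0 past the threshold. The other probe sets of Nrp1 were at 0.54 and 0.45. With trend and robust settings of limma Gpr83 passed (adjusted p = 0.0385). The list means did not overlap, at 9.68 to 9.73 in the knockout and 9.56 to 9.63 in wild type.

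Other cells could carry several of the 9 genes: B cells express Cxcr5, germinal centre B cells Bcl6, and plasma cells and myeloid cells Il6st or Il6ra. Follicular helper cells share the programme and aid B cells through IL-21 and CD40 ligand. No list used here tells them from follicular regulatory cells, and their part was not tested. The B cell list had 13 measured markers, 7 of them higher in the knockout and 6 lower (median 0.00). Their mean level was 6.54 to 7.01 in the knockout arrays, against 6.89 to 7.18 in the wild-type arrays. Ms4a1, which encodes CD20, read 7.40, 8.11 and 7.96 in the knockout arrays, against 9.04, 9.44 and 8.38 in the wild-type arrays. The B cell factor Spib differed by -0.94 (limma adjusted p = 0.230). Cd79a, the B cell receptor subunit, differed by 0.14 (SE 0.18). None of the B cell markers passed, and none could be called absent without detection calls.

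Of 5 germinal centre B cell markers 5 were higher by small amounts (median 0.07), with mean levels of 4.34 to 4.57 in the knockout and 4.31 to 4.42 in wild type. Gcsam, Mybl1 and Gcnt3, with knockout means of 3.34, 2.49 and 2.95, lay below the arrays' lower quartiles of 4.14 to 4.25. Whether background signal sets the direction of these 3 was not tested. Basp1, with the largest difference of the list at 0.28 (SE 0.10), was brighter. Its means were 7.68 in the knockout and 7.40 in wild type, with overlapping groups. All 10 plasma cell genes were higher (median 0.49), with mean levels of 8.86 to 9.36 in the knockout and 8.32 to 8.60 in wild type, and Igha rose by 1.81 (SE 0.14, limma adjusted p = 0.00799; 0.0576 without knockout replicate 2 and 0.201 by the unmoderated test). Its other probe sets rose by 2.28 and 2.79 (limma adjusted p = 0.00767 and 0.00474), all with knockout means of 14.30 to 14.33, near the top of the scale, where a rise can be understated. In wild type the Igha means were 11.53 to 12.49. Jchain read 13.60, 13.59 and 13.74 in the knockout arrays, against 12.74, 13.20 and 13.26 in the wild-type arrays. Its means of 13.64 and 13.06 lay above those of Cd3d, the brightest of the T cell list (12.81 and 12.92). These plasma cell transcripts were thus bright in both genotypes. The plasma cell list also holds Irf4 and Prdm1, which regulatory T cells express as well. Among myeloid and dendritic markers 5 of 14 were higher (median -0.11), with mean levels of 7.25 to 7.64 in the knockout and 7.35 to 7.81 in wild type. Of 9 CD8 T and NK cell markers 2 were higher (median -0.14), with mean levels of 6.94 to 7.21 in the knockout and 7.09 to 7.39 in wild type. The part of these cells in the values of the follicular genes was not tested. The marker genes Ms4a1, Spib, Cd79a, Basp1, Jchain and Igha were chosen after their values were seen.

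**Figure D4:**
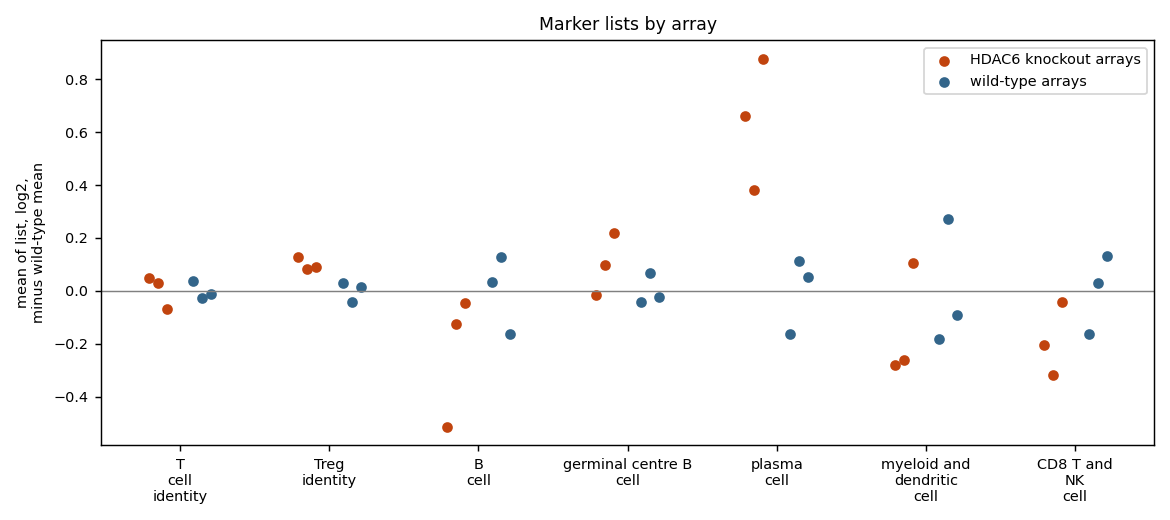
Mean log2 level of each marker list per array, minus the wild-type mean (vertical axis), for 3 HDAC6 knockout arrays (orange) and 3 wild-type arrays (blue). The plasma cell list and, by less, the regulatory T cell list lie higher in all 3 knockout arrays. The B cell list is lowest in knockout replicate 1, and the T cell list overlaps between the genotypes.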

How the data were processed

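Transcript levels were measured on 1-colour arrays of biotin-labelled RNA, 3 per genotype. The authors deposited log2 values made by RMA (background correction, quantile normalization, probe summary), per the submitters' processing notes, which give no version; the log2 scale was read from the range. RMA compresses the differences of dim and near-saturated probe sets. Of 22690 probe sets, 64 controls were left out. Names came from the platform annotation, updated through gene IDs (20351 probe sets matched RefSeq, GRCm38.p6), and genes were named only from the 20380 probe sets with 1 symbol. Array number limits the precision: the median SE of a difference was 0.10.

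The test was limma's (version 3.58.1, R 4.3.3; lmFit, eBayes, genotype as the only term, two-sided, Benjamini-Hochberg over all 22626 probe sets, threshold 0.05), tested on simulated data. Listed genes were represented by the probe set with the highest mean. Named were all members, Hdac6, in the programme, T cell and regulatory T cell lists the genes past the threshold or otherwise the 3 of smallest p, and the 4 genes most like Cxcr5, Bcl6 and Il21. Lists overlap (Irf4, Prdm1, Il2ra, Stat3, Ctla4, Tnfrsf4 and Cd28 appear more than once). Members and lists were chosen with earlier results of these data known. Whether replicate numbers pair the arrays was not settled, and the main fit did not use them. The correlations of same-numbered deviations were 0.22, -0.09 and 0.10, the first being the highest of all. Those of other-numbered deviations ran from -0.22 to 0.13, and 3 arrays per genotype are too few to decide. Blocking on these numbers gave 2711 probe sets at an unadjusted p under 0.05, against 2403 in the main fit. Past the adjusted threshold it gave 27, against 44. No slide or scan date was used here. Promoter sequences are RefSeq's. Figures were drawn with matplotlib 3.10.9.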

Additional observations from a re-analysis of the deposited data

How the results depend on the processing

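The count of probe sets past the threshold moved most. It was 44 over the table, 147 with trend and robust settings, 121 at an adjusted p of 0.1, 86 with array weights, 27 with the replicate number as a block and 0 with the unmoderated test (2239 at an unadjusted p under 0.05), and 5 to 51 with 1 array left out: without knockout replicate 2 it was 5, without knockout replicate 1 it was 20, and without wild type replicate 2 it was 11. For the 15 follicular probe sets 0 passed in each fit except trend and robust eBayes and the looser threshold of 0.1, which called 1 each, Cxcr5. Among the 141 listed genes 1 passed, Igha, against 3 with trend and robust settings (Gpr83, Id2 and Igha) and 0 with the unmoderated test, and 0 to 1 with 1 array left out (0 without knockout replicate 2). The median difference of the 15 probe sets was 0.08, and 0.02 to 0.14 with 1 array left out, 0.05 with array weights and 0.15 over probe sets with a mean of at least 6. Of 163 recomputed single differences, all moved by less than 1 within-genotype SD. With 3 arrays per genotype, leaving out 1 array cannot move a difference by that much. The replicate block leaves every difference unchanged, so no stability is read from that count. Without some array 7 of the 15 changed sign, each with a difference of at most 0.15. The replicate block changed no call among the follicular probe sets (0 past the threshold). What limits these values is the number of arrays and, for Il21, Cd40lg and the dimmer probe sets of Bcl6 and Il6st, signal near or below the arrays' medians without detection calls.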
